A study of Mus musculus with 6 samples.

Results

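The immediate early transcription factors are 10 genes of 47729 in the deposited table: the AP-1 genes Fos, Fosb, Fosl2, Jun and Junb, the Egr genes Egr1, Egr2 and Egr3, and Atf3 and Ier2. They were taken by name, whatever their values, and each symbol matched 1 Ensembl ID in the GRCm38 annotation. All 10 passed the filter on low counts. The tissue was left ventricular myocardium of mice at 9 days after transverse aortic constriction (TAC), surgery that narrows the aorta so that the left ventricle pumps against a higher pressure. All 6 libraries came from operated hearts, 3 labelled control and 3 labelled Treg. The series title describes systemic treatment with regulatory T cells induced in vitro and deprived of CD28. What the control group received, the strain, age and sex of the mice, the donor of the cells, and whether a library is 1 animal were not given in the sources used here. A p-value here therefore reflects how far these libraries spread, which may in part be technical.

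Immediate early genes are transcribed within minutes of a stimulus and need no new protein for it, because the factors that switch them on, among them SRF with its ternary complex partners and CREB, are already present and are activated by kinases. Fos proteins bind DNA only as dimers with Jun proteins, and these AP-1 dimers act on matrix, cytokine and growth genes, while Egr proteins bind GC-rich sites through zinc fingers. In the heart the genes respond to stretch and neurohormones, and in many tissues also to dissection, ischaemia and heat.

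Library totals ran from 28939759 to 29981410 estimated counts, of which mitochondrially encoded genes took 20.8% to 24.1%. Cardiomyocyte markers were abundant throughout, with summed levels of 38800 to 56600 CPM (counts relative to library size, with TMM scaling factors) in control and 46800 to 63000 in Treg. Of the 6 libraries, 2 stood apart. Control replicate 3 had the highest sum of the 8 neutrophil markers, at 43.4 CPM against 6.91 and 9.56 in the other controls and 8.45 to 18.5 in Treg, although the defining neutrophil gene Ly6g had 0 counts in it and 0 to 4 elsewhere. It also had the lowest sum of the 6 erythroid genes, at 292 CPM against 1070 to 2850 elsewhere. It was the highest library for 33.3% and the lowest for 31.9% of all genes tested. Treg replicate 3 held atrial transcripts, with the atrial light chain gene Myl7 at 1202 counts against 1 to 6 elsewhere and Sln at 398 against 0 to 3. The sum of the 5 atrial markers, most of it Nppa, which a loaded ventricle also makes, was 1020 CPM there, 582 and 641 in the other Treg libraries and 229 to 1440 in control, and Bmp10 had 0 to 3 counts. The 8 T cell markers summed to 18 CPM in control replicate 3 and 3.28 to 5.76 elsewhere, most of it from Cd3e, with 465 counts there, 36 and 82 in the other controls and 12 to 16 in Treg, while Cd3g and Trac had 0 counts in that library and Cd3d 0 to 3 in all 6. Foxp3, the regulatory T cell factor, had 43 to 51 counts in control and 42 to 56 in Treg, and Il2ra, the interleukin-2 receptor gene, 3 to 17 and 23 to 38. Both libraries bear on the immediate early genes, and values are given with and without them.

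The 250 bases before the transcription start were examined for 7 members with a RefSeq window (GRCm38.p6), and 4 are shown: Jun, which separated the groups most clearly, Fos and Junb, AP-1 partners whose groups overlapped, and Atf3, which was far higher in 1 Treg library. They are written 5′ to 3′ on the gene's own strand, with motif matches in capitals.
Jun, chr4:95052223-95052472, minus strand: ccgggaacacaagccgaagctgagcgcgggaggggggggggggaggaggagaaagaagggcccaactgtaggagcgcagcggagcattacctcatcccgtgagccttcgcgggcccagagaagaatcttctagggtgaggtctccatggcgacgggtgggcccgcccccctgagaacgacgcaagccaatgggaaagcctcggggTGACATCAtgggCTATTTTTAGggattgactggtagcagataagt
Fos, chr12:85473640-85473889, plus strand: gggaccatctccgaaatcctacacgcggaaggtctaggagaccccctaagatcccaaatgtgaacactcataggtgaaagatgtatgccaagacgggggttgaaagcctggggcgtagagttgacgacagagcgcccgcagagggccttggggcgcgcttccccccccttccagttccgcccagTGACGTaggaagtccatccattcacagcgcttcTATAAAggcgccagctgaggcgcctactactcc
Junb, chr8:84978749-84978998, minus strand: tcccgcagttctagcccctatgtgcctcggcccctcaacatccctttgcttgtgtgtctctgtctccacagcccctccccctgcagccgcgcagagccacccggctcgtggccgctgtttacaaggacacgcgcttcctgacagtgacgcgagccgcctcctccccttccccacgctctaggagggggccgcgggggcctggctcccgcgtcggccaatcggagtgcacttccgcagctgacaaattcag
Atf3, chr1:191183334-191183583, minus strand: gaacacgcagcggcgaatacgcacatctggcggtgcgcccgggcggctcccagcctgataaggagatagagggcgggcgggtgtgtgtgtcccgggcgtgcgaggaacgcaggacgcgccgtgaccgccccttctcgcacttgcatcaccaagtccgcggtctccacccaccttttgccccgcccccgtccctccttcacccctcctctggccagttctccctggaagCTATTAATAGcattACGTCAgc

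The capitals in Jun are TGACATCA, a match to the AP-1 and ATF-like motif TGACNTCA, 45 to 38 bases before the start, and a MEF2 site (named for the muscle factor family) 33 to 24 bases before it. Those in Fos are the CRE core TGACGT, at 66 to 61 bases, and TATAAA, at 33 to 28. Those in Atf3 are a MEF2 site at 22 to 13 bases and the CRE core on the other strand, ACGTCA, at 8 to 3. GENCODE M21 places exon of Atf3 itself over the last 7 bases of this window, 5 of the 6 bases of the CRE core among them, and 1 annotated Atf3 transcript starts further upstream, so the window lies within the span of the gene. Over the 32851 windows of this length for all genes, TGACNTCA was in 7.49%, TGACGT in 6.47%, TATAAA (gene strand only) in 7.59% and the MEF2 site in 0.508%. TGACGT was also in an Egr2 window, and the CArG box, the SRF motif, was in Egr2 alone of the 7 members, against 1.47% of all windows. The Egr motif GCGNGGGCG was in Fosb and Fosl2 (4.7% of all windows), and the AP-1 motif TGACTCA was in no member's window (4.46%). Motifs spelled out were searched on both strands except TATAAA, and a match to TGACNTCA with G at its N also holds TGACGT. No entry was matched for Egr1, Egr3 and Ier2.

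The question put to the members was whether their levels differed between the Treg and control groups. Jun and Egr1 were about 2-fold higher in the Treg libraries and Egr3 2.4-fold, with every Treg library above every control. The other 7 overlapped between the groups, and Fos, Fosl2 and Ier2 had fold changes near 1. By edgeR's quasi-likelihood test with Benjamini-Hochberg adjustment over all genes, 0 of the 10 passed an adjusted p of 0.05, as did 0% of the 17365 genes tested. At an unadjusted p under 0.05 there were 3 members, all higher in Treg, against 16.5% of all genes (8.23% higher and 8.31% lower). Groups did not overlap at 3 of 10 members, all higher in Treg, against 25.4% of all genes (13.7% higher and 11.7% lower), so the number of members that separated the groups is close to the background. DESeq2 called 2 of the 10, Jun and Egr1, and 3.9% of all genes, and limma-voom called 0 members, with 3 at an unadjusted p under 0.05. With control replicate 3 left out, edgeR called 0 members and 1.3% of all genes, and without replicate 3 of both groups 0 members and 0.684%. The median log2 fold change was 0.28 over the 10 members and −0.02 over all genes tested, with 6 members above 0 and 4 below.

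**Figure D1:**
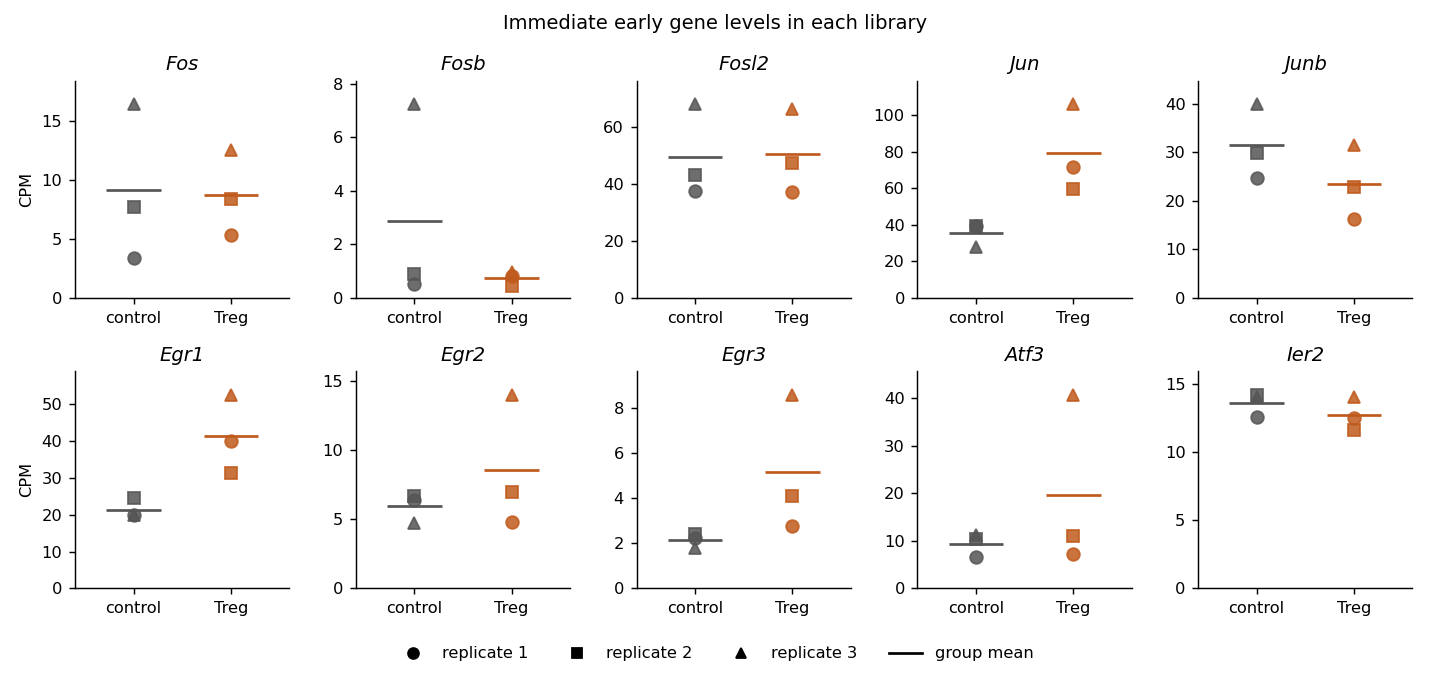
Level of each of the 10 genes in CPM (y axis from 0, own scale per gene) in 3 control and 3 Treg libraries; each symbol is 1 library, shaped by replicate number, and the line is the group mean. The groups are apart for Jun, Egr1 and Egr3, and Fosb and Atf3 each have 1 library far above the others.

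Jun encodes a Jun protein, a partner of Fos proteins in AP-1 dimers (ENSMUSG00000052684, chromosome 4, 95049034 to 95052222). It stood at 39.3, 39.6 and 27.9 CPM in control replicates 1 to 3 and at 71.8, 59.7 and 106 CPM in Treg replicates 1 to 3. The lowest Treg library lay well above the highest control. Group means were 35.6 ± 6.69 and 79.2 ± 24.1 CPM (SD, n = 3 libraries in each group), and the log2 fold change with its SE was 1.15 ± 0.24 (edgeR adjusted p = 0.136, DESeq2 adjusted p = 0.0015). Leaving out control replicate 3 and Treg replicate 3 together, the log2 fold change was 0.73 (edgeR adjusted p = 0.0718), and leaving out any 1 library it was 0.89 to 1.32 (edgeR adjusted p = 0.1 to 0.53). Junos, the antisense gene whose exons overlap those of Jun, went the same way, at 89, 91 and 67 counts in control and 141, 114 and 223 in Treg (log2 fold change 0.91, edgeR adjusted p = 0.21). The library kit keeps strand, but the strand setting of the counting was not given in the sources used here, so reads of Jun and Junos may not be fully separated.

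Junb, a Jun relative that often restrains Jun activity, lay lower on average in Treg (ENSMUSG00000052837, chromosome 8, 84974484 to 84978718). Its levels were 24.7, 29.9 and 39.9 CPM in control and 16.3, 22.8 and 31.6 CPM in Treg. The groups overlapped, with replicate 3 highest in each. Its fold change on the log2 scale was −0.42 ± 0.27 (edgeR adjusted p = 0.454), −0.21 without control replicate 3 and −0.69 without Treg replicate 3. Exons of Prdx2, a peroxiredoxin gene on the opposite strand with 5169 to 8033 counts per library, overlap those of Junb, which makes the level of Junb less certain. Prdx2 itself had a log2 fold change of 0.07 (edgeR adjusted p = 0.886).

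The 3 Fos family members, which supply the other partner of AP-1 dimers, did not differ between the groups beyond the spread of the libraries. Fos, the founding member (ENSMUSG00000021250, chromosome 12, 85473890 to 85477273), stood at 3.37, 7.74 and 16.4 CPM in control and 5.31, 8.37 and 12.5 CPM in Treg. The range among the controls, 4.86-fold, was the whole range of the 6 libraries and enclosed all Treg values. For Fos the log2 fold change was −0.07 ± 0.55 (edgeR adjusted p = 0.958). It turned to 0.65 without control replicate 3 and was −0.42 without Treg replicate 3 and −0.45 without control replicate 1.

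Fosb, a Fos relative linked to sustained stimulation, was low in 5 libraries and high in 1 (ENSMUSG00000003545, chromosome 7, 19302696 to 19310051). It stood at 0.526, 0.894 and 7.24 CPM in control, or 15, 27 and 215 counts, and at 0.824, 0.433 and 0.973 CPM in Treg. Control replicate 3 was 7.43 times the next highest library. The log2 fold change of −1.94 ± 0.95 (edgeR adjusted p = 0.349) became 0.07 without that library, and without any other library it was −2.42 to −1.66.

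Fosl2, which encodes Fra-2 (ENSMUSG00000029135, chromosome 5, 32135801 to 32157842), varied least of the Fos genes. It stood at 37.4, 43.1 and 68 CPM in control and 37.1, 47.5 and 66.5 CPM in Treg. The 2 sets of values nearly coincided, and replicate 3 was highest in each. For Fosl2 it was 0.03 ± 0.28 on the log2 scale (edgeR adjusted p = 0.97), 0.32 without control replicate 3 and −0.22 without Treg replicate 3.

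**Figure D2:**
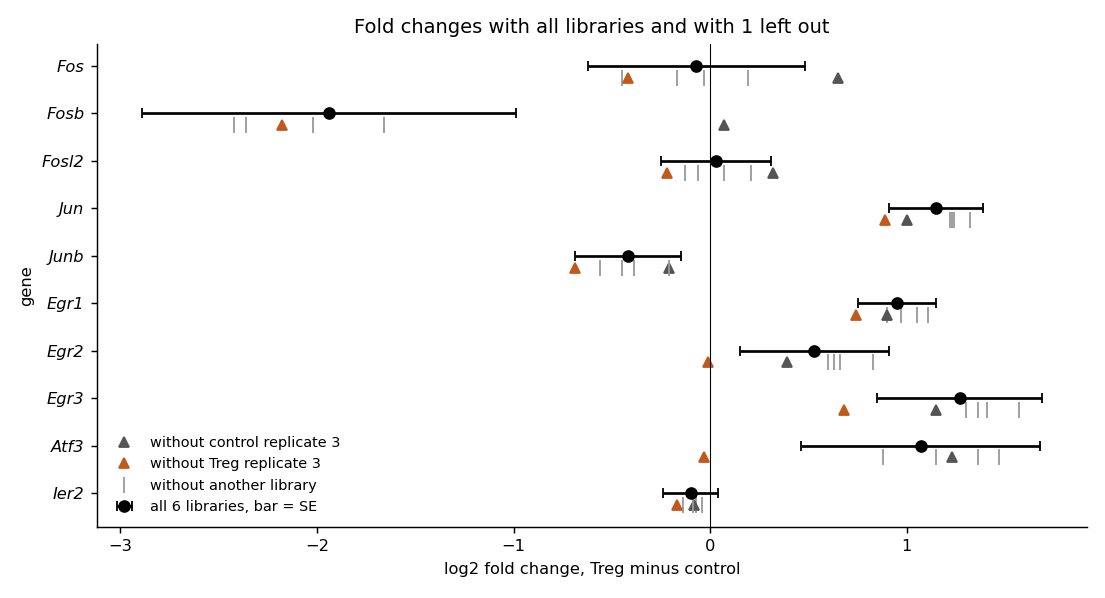
Log2 fold change of each gene, Treg minus control (x axis): black points with SE bars are all 6 libraries, and the marks below each are the same fit with 1 library left out, triangles for replicate 3 of either group. Jun, Egr1 and Egr3 stay above 0 in all of them; Fosb moves from −1.94 to 0.07 without control replicate 3 and Atf3 from 1.07 to −0.03 without Treg replicate 3.

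Egr1 encodes the zinc finger factor that is often the strongest transcriptional response to growth signals (ENSMUSG00000038418, chromosome 18, 34859823 to 34864984). It stood at 19.9, 24.5 and 19.9 CPM in control and 40.1, 31.3 and 52.6 CPM in Treg. All Treg values lay above all controls, and the controls were close together. Means were 21.4 ± 2.67 and 41.3 ± 10.7 CPM, a log2 fold change of 0.95 ± 0.20 (edgeR adjusted p = 0.141, DESeq2 adjusted p = 0.00422). Without replicate 3 of both groups it was 0.67 (edgeR adjusted p = 0.121), and without any 1 library 0.74 to 1.11 (edgeR adjusted p = 0.105 to 0.53).

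Egr3, a relative known as a target of calcineurin signalling, was low but also separated the groups (ENSMUSG00000033730, chromosome 14, 70077203 to 70082614). It stood at 2.21, 2.42 and 1.78 CPM in control and 2.77, 4.07 and 8.57 CPM in Treg. The highest control and the lowest Treg library, at 73 and 84 counts, were close. The log2 fold change was 1.27 ± 0.42 (edgeR adjusted p = 0.237, DESeq2 adjusted p = 0.0735), and it was 0.68 without Treg replicate 3 and 0.55 without replicate 3 of both groups.

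Egr2, which is best known from Schwann cells and from T cell anergy, overlapped between the groups (ENSMUSG00000037868, chromosome 10, 67535475 to 67542188). It stood at 6.39, 6.69 and 4.71 CPM in control and 4.78, 6.96 and 14 CPM in Treg. Only Treg replicate 3 stood out, at 2.01 times the next highest library. Its log2 fold change was 0.53 ± 0.38 (edgeR adjusted p = 0.497), −0.01 without Treg replicate 3 and −0.17 without replicate 3 of both groups.

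Atf3, a stress-induced bZIP factor that mostly represses its targets (ENSMUSG00000026628, chromosome 1, 191170296 to 191218039), stood at 6.49, 10.3 and 11.3 CPM in control and 7.29, 11 and 40.7 CPM in Treg. Treg replicate 3 held 1295 counts against 185 to 335 in the other 5 libraries, 3.61 times the next highest level. The other 2 Treg libraries lay within the range of the controls. The log2 fold change of 1.07 ± 0.61 (edgeR adjusted p = 0.409) became −0.03 without Treg replicate 3.

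Ier2, a short nuclear protein gene of the serum response (ENSMUSG00000053560, chromosome 8, 84661331 to 84662852), was the steadiest member. It stood at 12.6, 14.2 and 14 CPM in control and 12.5, 11.6 and 14 CPM in Treg, so the highest library was only 1.22 times the lowest. The log2 fold change was −0.10 ± 0.14 (edgeR adjusted p = 0.733) and stayed between −0.17 and −0.04 with any 1 library left out.

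Levels of different genes were compared per length, as CPM per kilobase of annotated exon, which counts every annotated exon of a gene and so understates the level of a gene with long, little-used exons. In control the order by mean was Junb at 13.7, Jun at 11.2, Ier2 at 8.94, Fosl2 at 5.11, Egr1 at 4.78, Atf3 at 4.34, Fos at 3.89, Egr2 at 1.74, Egr3 at 0.485 and Fosb at 0.462 CPM per kilobase. Neighbours in that order had overlapping libraries except Ier2 above Fosl2 and Egr2 above Egr3. In Treg, Jun stood first at 24.8 CPM per kilobase and its 3 libraries (18.7 to 33.3) lay above all of Junb (7.08 to 13.7), the second at 10.2. Egr1 at 9.22 and Atf3 at 9.12 stood between Junb and Ier2 (8.34). Neighbours among these 4 overlapped, while Ier2 lay above Fosl2 in every library. Fosb was last in both groups, and in Treg its libraries lay below all of Egr3.

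Ratios of 2 genes within a library do not depend on how libraries are scaled; the pairs were chosen after their values were seen and are given as a description. Jun over Junb was 1.59, 1.33 and 0.698 in control and 4.4, 2.62 and 3.36 in Treg, so the groups were apart in this ratio also for replicates 1 and 2. The exon overlaps of Junb with Prdx2 and of Jun with Junos make this ratio less certain. Jun over Jund, a Jun gene that most cells express constitutively, was 0.603, 0.662 and 0.444 in control and 1.27, 1.18 and 1.7 in Treg. Jun over Fosl2 was 1.05, 0.919 and 0.41 against 1.93, 1.26 and 1.6, again apart. Jun over Fos was not: it was 11.7, 5.12 and 1.7 in control and 13.5, 7.13 and 8.49 in Treg. Egr1 over Nab2, a corepressor that Egr1 induces and that limits it, was 2.74, 2.56 and 3.19 in control and 5.55, 4.39 and 4.1 in Treg. By contrast Jun and Egr1 kept nearly the same proportion, with Jun over Egr1 between 1.4 and 2.02 in all 6 libraries, and Ier5 over Jun lay between 0.692 and 0.853.

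**Figure D3:**
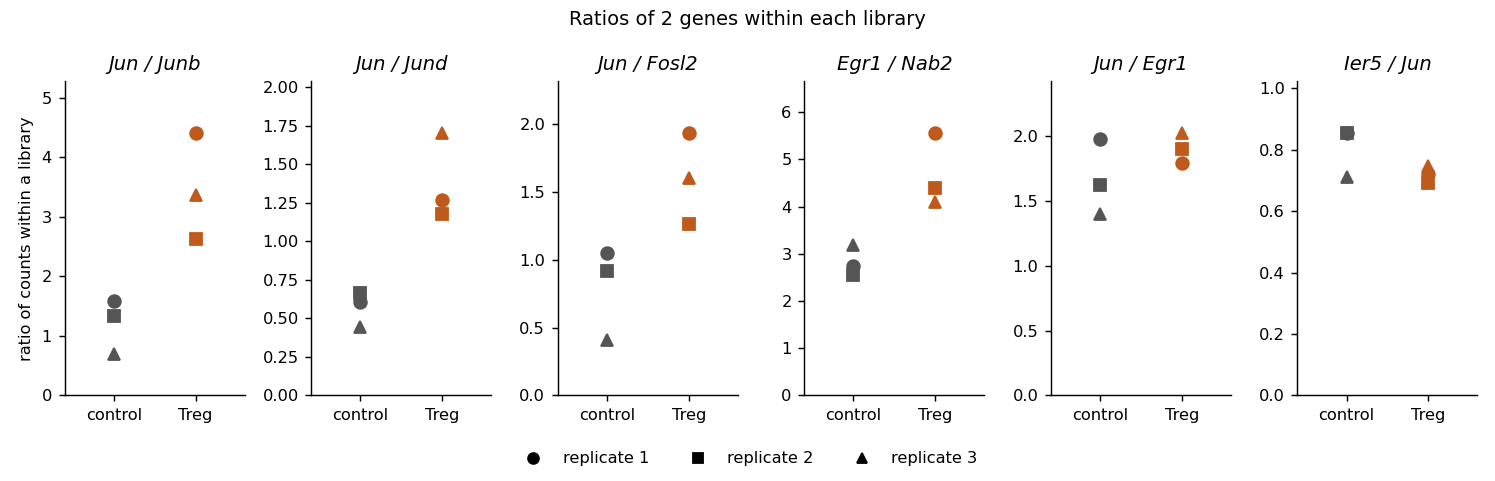
Ratio of the counts of 2 genes within each library (y axis from 0, own scale per panel), with 3 control and 3 Treg libraries shaped by replicate number. The first 4 ratios do not overlap between the groups (Jun over Junb 0.698 to 1.59 in control, 2.62 to 4.4 in Treg), while Jun over Egr1 and Ier5 over Jun do.

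The members differed in the library in which they peaked. Treg replicate 3 was highest for 5 of 10, namely Jun, Egr1, Egr2, Egr3 and Atf3, where it was highest for 10.7% of all genes tested, and lowest for 0. Control replicate 3 was highest for 4, the 3 Fos genes and Junb, and lowest for 4, namely Jun, Egr1, Egr2 and Egr3, near its shares over all genes of 33.3% and 31.9%. In Treg replicate 3, 8 members were over 1.5 times the mean of the other 2 Treg libraries, against 4.41% of all genes; Egr1 (1.47) and Ier2 (1.16) were not. In control replicate 3, 3 members were over 1.5 times the mean of the other controls, Fos (2.94), Fosb (10.2) and Fosl2 (1.69), against 15.2% of all genes.

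Of the 12 heat shock genes, 7 were highest in Treg replicate 3, and Hspa8, Bag3, Hspb1, Hspd1 and Hsf1 were highest in other libraries. Hspa1a, an inducible Hsp70 gene, stood at 5.26, 3.74 and 9.56 CPM in control and 3.5, 5.34 and 49.5 CPM in Treg, and its near-identical copy Hspa1b at 5.44, 4.77 and 9.49 against 4.19, 5.91 and 55.2; reads of the 2 copies cannot be told apart with confidence. The co-chaperone gene Dnajb1 stood at 41.2 CPM in that library against 14.7 to 22.4 elsewhere, and Hsph1 at 73.1 against 11.2 to 27.0. The summed level of the 12 heat shock genes was 2090 CPM there and 1460 to 1850 in the other libraries, and Hspa8, the constitutive Hsp70, alone was at 871 and 648 to 971 CPM. That library is also the one with atrial transcripts. The part of atrial tissue, heat shock or handling in the levels of Atf3 and the Egr genes was not tested.

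**Figure D4:**
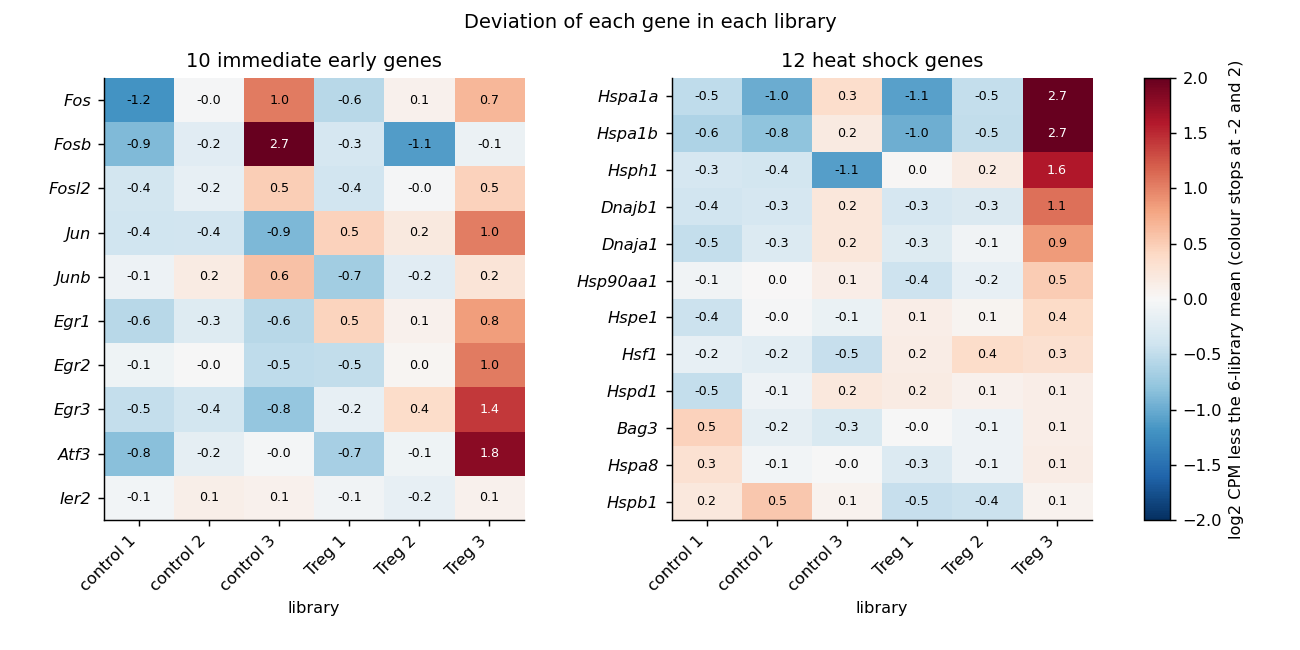
Log2 CPM less the 6-library mean for the 10 genes (left) and 12 heat shock genes (right), with rows as genes and columns as libraries; red is above and blue below the mean, and numbers are the plotted values. Treg 3 is red for Atf3 (1.8), Egr3 (1.4), Hspa1a and Hspa1b, and control 3 is red for Fosb (2.7) and Fos (1.0) but blue for Jun (−0.9).

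Fosb and Fos peaked in control replicate 3, the highest library for 33.3% of all genes tested. So did 6 of the 8 neutrophil markers, but Csf3r was highest in Treg replicate 1, at 7.09 CPM against 5.72. Ly6g had 0 counts in control replicate 3. S100a8 and S100a9, neutrophil calcium-binding proteins, were at 355 and 389 counts in that library and at 25 to 170 elsewhere. Ptgs2, the inducible cyclooxygenase and an immediate early gene itself, stood at 16.7 CPM there, 1.61 and 3.67 in the other controls and 3.92, 6.64 and 13.3 in Treg. Myc reached 16.4 CPM in the same library and 3.64 to 5.66 in the others, and Socs3, a feedback inhibitor of cytokine signalling, 36.8 against 4.81 to 13.2. Some other immediate early genes were lowest there, such as Ier5 at 19.8 CPM against 33.5 to 79.1 and Phlda1 at 5.25 against 9.34 to 19.9. The part of infiltrating cells in these values was not tested, and in bulk tissue more cells of a type and more RNA per cell cannot be told apart.

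Of 27 other immediate early genes tested, 0 passed by edgeR and 2 by DESeq2 (Ier5 and Nr4a3), against 3.9% of all genes by DESeq2. At an unadjusted p under 0.05 by edgeR, 8 were higher and 0 lower (8.23% and 8.31% of all genes). The median log2 fold change was −0.05 (−0.02 for all genes), −0.27 without Treg replicate 3 and 0.14 without control replicate 3. The groups were apart at 6, all higher in Treg (13.7% of all genes higher and 11.7% lower). Ier5, an immediate early regulator of heat shock and growth responses, stood at 33.5, 33.8 and 19.8 CPM in control and 51.7, 41.3 and 79.1 CPM in Treg, the same order of libraries as Jun within the Treg group (log2 fold change 0.98 ± 0.29, edgeR adjusted p = 0.215, DESeq2 adjusted p = 0.0435), which was 0.46 without replicate 3 of both groups. Klf2, a shear-responsive endothelial factor, had 0.43 (edgeR adjusted p = 0.247). The lowest p among genes below 0 were those of Socs3 (−1.35, edgeR adjusted p = 0.304) and Myc (−1, edgeR adjusted p = 0.335), which had −0.48 and −0.21 without control replicate 3. Nr4a3, an orphan nuclear receptor called by DESeq2 and named after its values were seen, stood at 6.77, 3.48 and 4.51 CPM in control and 4.42, 15.9 and 27.3 CPM in Treg (1.69 ± 0.59, edgeR adjusted p = 0.257, DESeq2 adjusted p = 0.0479), with Treg replicate 1 inside the control range and 1.04 without Treg replicate 3. Arc, a cytoskeletal immediate early gene also named afterwards, was apart at 0.877 to 1.89 CPM in control and 1.98 to 3.86 in Treg.

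Among 21 tested relatives of the AP-1 and CRE-binding bZIP family, 0 passed by edgeR or DESeq2, with 0 higher and 3 lower at an unadjusted p under 0.05 and a median of −0.05. Creb3, a factor of the endoplasmic reticulum and Golgi, averaged 35 ± 2.85 CPM over the controls and 25.2 ± 2.49 over the Treg libraries (log2 fold change −0.47 ± 0.13, edgeR adjusted p = 0.198). Mafk, a small Maf protein that pairs with other bZIP factors, had −0.48 (edgeR adjusted p = 0.238). In the other direction Maf had 0.36 and Batf, an AP-1 factor of lymphocytes, 0.42 (edgeR adjusted p = 0.441 and 0.494), and Maf had 0.18 without control replicate 3. Of the Egr corepressors Nab1 had −0.42 and Nab2 0.24 (edgeR adjusted p = 0.331 and 0.678), but Nab1 had −0.19 without control replicate 3 and Nab2 −0.1 without Treg replicate 3. Wt1, a factor with related zinc fingers, had −0.31 (edgeR adjusted p = 0.419), or −0.19 without control replicate 3, and Egr4 did not pass the filter on low counts.

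Genes that feed back on the response or destroy its mRNAs lay below 0 in 13 of 19 cases, with a median of −0.18; 0 passed by edgeR and 1 by DESeq2, and 3 were lower and 1 higher at an unadjusted p under 0.05. Gadd45g, a stress sensor that activates p38 and JNK kinases, stood at 19.9, 26.6 and 39.5 CPM in control and 8.67, 7.5 and 14.9 CPM in Treg. The groups were apart, in the direction opposite to Jun (log2 fold change −1.47 ± 0.33, edgeR adjusted p = 0.156, DESeq2 adjusted p = 0.00139). Without replicate 3 of both groups Gadd45g was called (−1.54, edgeR adjusted p = 0.0278), but with any 1 library left out it was not (edgeR adjusted p = 0.087 to 0.593). Its relative Gadd45a had 0.72 (edgeR adjusted p = 0.283), with every Treg library above every control. Spry1, an inhibitor of receptor kinase signalling, had −0.33 and Btg2, an antiproliferative mRNA decay factor, 0.65 (edgeR adjusted p = 0.271 and 0.311), Btg2 having 0.27 without Treg replicate 3. Of 26 upstream kinases and factors 0 passed by edgeR or DESeq2, with 2 higher and 3 lower at an unadjusted p under 0.05 and a median of −0.01. Map2k1, the ERK kinase MEK1, averaged 64.5 ± 4.18 CPM over the controls, each of them above every Treg library (−0.37 ± 0.11, edgeR adjusted p = 0.219), and Map2k4, a JNK kinase, had −0.36. Rps6ka5, a histone H3 and CREB kinase, had 0.62 and Mapk10, the JNK3 gene, 0.50 (edgeR adjusted p = 0.245 and 0.257).

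The commonly cited AP-1 target genes were listed with earlier results of these data known, so their direction is a description only. They lay below 0 in all 16 cases, where 48% of all genes tested lay above 0. Their median was −1.82, and 9 were lower at an unadjusted p under 0.05 (8.31% of all genes). That number was 4 without control replicate 3, 3 without Treg replicate 1 or 2, 4 with limma-voom and 4 without a filter on low counts. It rose to 13 without control replicate 1 and to 10 without control replicate 2 or Treg replicate 3. By edgeR 0 passed, and by DESeq2 4, Mmp14, Lox, Plaur and Cd44, all lower (3.9% of all genes in either direction). The median was −0.85 without control replicate 3. The list's median deviation in log2 CPM from the mean of all libraries was −0.44, 0.57 and 1.86 in control replicates 1 to 3. It was −0.97, −0.86 and −0.23 in Treg replicates 1 to 3, so control replicate 1 lay within the Treg range. Of the genes DESeq2 called, Mmp14 and Lox did not overlap between the groups. Control replicate 1 lay below Treg replicate 3 for Plaur (2.49 against 3.3 CPM) and Cd44 (20.2 against 20.6 CPM). The 3 apart between the groups were Mmp14, a membrane collagenase, Lox, the collagen crosslinking oxidase, and Hmox1, the inducible haem oxygenase, the last named, with Plaur and Cd44, after values were seen. Hmox1 was barely apart, at 18.8, 32.9 and 188 CPM in control and 12.2, 11.2 and 18.3 in Treg, and its log2 fold change of −2.52 was −0.89 without control replicate 3. Mmp14 stood at 74.3, 92.7 and 88.8 CPM in control and 42.3, 31.2 and 44.7 CPM in Treg, a direction opposite to that of Jun in the same libraries (log2 fold change −1.11, edgeR adjusted p = 0.0989). With any 1 library left out, the edgeR adjusted p of Mmp14 ran from 0.0393 (without control replicate 3) to 0.496 (without Treg replicate 1). Lox had −1.89 (edgeR adjusted p = 0.132). Of the 12 heat shock genes 0 passed by edgeR and 2 by DESeq2 (3 higher and 1 lower at an unadjusted p under 0.05, median 0.4, and −0.13 without Treg replicate 3). Hsf1, the heat shock factor itself, averaged 15.9 ± 1.7 CPM over the controls and 23.3 ± 1.8 over the Treg libraries (0.55 ± 0.14, edgeR adjusted p = 0.174, DESeq2 adjusted p = 0.0419), and Hsph1 had 1.35 (edgeR adjusted p = 0.237), 0.66 without Treg replicate 3 and 0.44 without replicate 3 of both groups. Hspb1, a small heat shock protein, had −0.54 and Hspa8 −0.16 (edgeR adjusted p = 0.265 and 0.659).

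**Figure D5:**
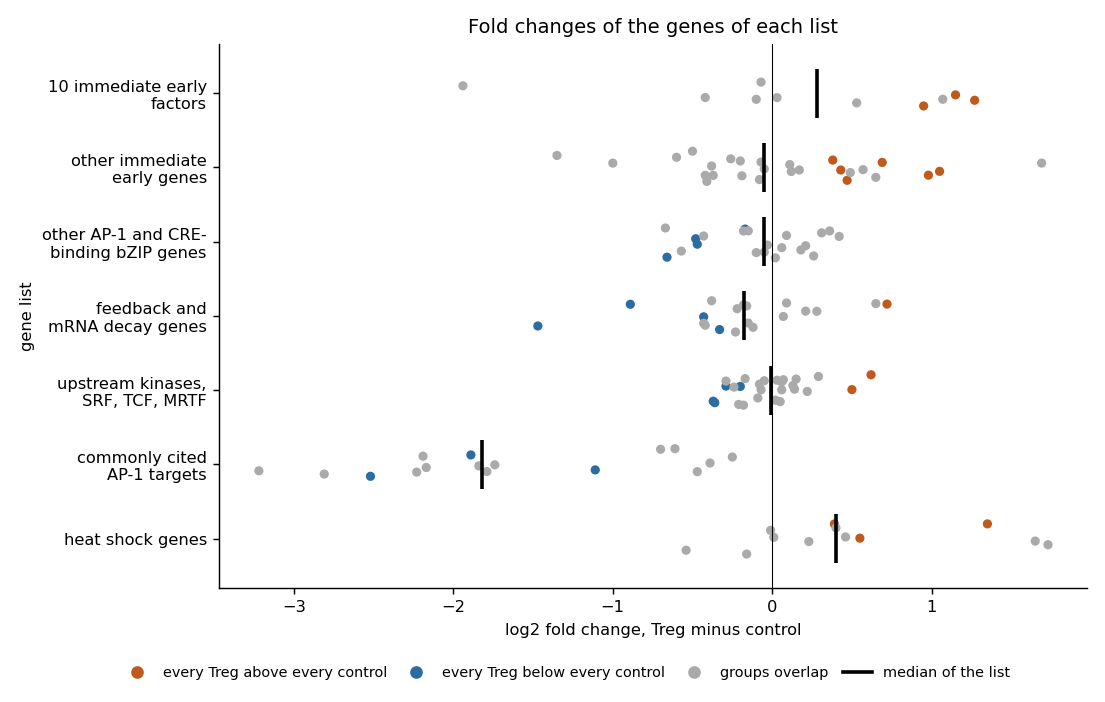
Log2 fold change, Treg minus control (x axis), of each tested gene in 7 lists (y axis, points spread vertically for legibility); colour marks genes whose libraries do not overlap between the groups, and the bar is the list median. The AP-1 targets lie below 0 (median −1.82), while the 10 immediate early factors run from −1.94 to 1.27.

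The genes whose profile was most like that of the members were sought among 12891 protein-coding genes averaging 1 CPM or more, by the root mean square difference over the 6 libraries from the members' mean deviation in log2 CPM. That mean was −0.5, −0.13 and 0.21 in control and −0.24, −0.08 and 0.75 in Treg. The closest gene was Dnaja1, an Hsp40 co-chaperone, with a difference of 0.07 and levels of 41.8, 48.1 and 67.7 CPM in control and 48.3, 55.3 and 105 CPM in Treg. Runx3, a lymphocyte transcription factor, followed with 0.1 at only 27 to 85 counts, then Naaa, a lysosomal amidase, with 0.17, and Nle1 and Ust with 0.18 each. As the members' own profiles diverge between Jun and Fosb, this mean describes no single one of them.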

How the data were processed

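Stranded mRNA libraries of left ventricular tissue were sequenced as paired reads, per the labels' protocols. The submitters' processing notes name featureCounts 2.0.6, HISAT2 2.1.0, Cuffdiff 2.2.1, Trimmomatic 0.39 and the build GRCm38; what each was used for, how reads were counted and on which annotation were not given in the sources used here. Values deposited by the authors are estimated counts per gene, not normalized, of which 46.5% to 50% of values above 0 in a library are fractional. Another 6 columns of the table match no sample here and were not used. Symbols came from GENCODE M21 (47224 IDs matched, 505 did not), promoter sequences from RefSeq on GRCm38.p6.

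Counts were rounded to whole numbers, which moved no library total by more than 0.0087%. The fit over all 17365 genes kept by filterByExpr used edgeR 4.0.16 in R 4.3.3 (TMM scaling, robust quasi-likelihood F test, two-sided, no covariates, Benjamini-Hochberg adjustment at 0.05). The SE of a log2 fold change is its size over the root of its F statistic. DESeq2 1.42.0 and limma-voom (limma 3.58.1), 2 other scalings, 2 other filters, removal of mitochondrially encoded genes, a replicate block and omission of libraries were alternatives. Deviations used log2(CPM + 0.1). On counts simulated for this comparison from the 17365 genes, few of them changed, edgeR recovered 42% of genes changed 2-fold and 87% of those changed 4-fold, with 13 false calls. DESeq2 recovered 59% and 94%, with 48 false calls. For both tools the false calls were a larger share of the calls than the 0.05 threshold allows for. The share was larger for DESeq2 than for edgeR. This is a limit on the adjusted p-values of both here. Genes were simulated independently, with no library standing apart as control replicate 3 does, so these rates may not hold for these data.

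The 10 members and all lists were chosen with earlier results of these data known. Named genes are the 10 members, for each other list and direction the 2 genes of lowest p, and the 5 genes with the most similar profile; others are said to have been named afterwards or stand beside a result their values move with.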

Additional observations from a re-analysis of the deposited data

How the results depend on the processing

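Over all genes, edgeR called 0 at an adjusted p under 0.05 and 82 under 0.1; DESeq2 called 650, edgeR without a filter on low counts 38, and edgeR without replicate 3 of both groups 119. Leaving out 1 library gave 0 to 230 calls, the 230 without control replicate 3. Of the 10 members DESeq2 called 2, Jun and Egr1, and all other alternatives called 0. Jun, Egr1, Egr3, Junb and Ier2 kept their sign in all 15 alternatives. The sign of Fos, main log2 fold change −0.07, turned with limma-voom (0.12), with the replicate block (0.11) and without replicate 3 of both groups (0.29), and ran from −0.45 to 0.65 over single omissions. The same range was −0.22 to 0.32 for Fosl2, −2.42 to 0.07 for Fosb, −0.01 to 0.83 for Egr2 and −0.03 to 1.47 for Atf3; Egr2 had −0.17 without replicate 3 of both groups. Over single omissions the number of genes at an unadjusted p under 0.05 by edgeR was 2 to 5 for the members (3 with all libraries), 3 to 11 for the other immediate early genes (8), 1 to 4 for the bZIP relatives (3), 2 to 6 for the feedback genes (4), 1 to 6 for the upstream genes (5), 3 to 13 for the AP-1 targets (9) and 3 to 4 for the heat shock genes (4). The causes were not tested. The replicate number as a block left 0 calls. Over all genes tested, same-numbered samples did not deviate together (correlations −0.139, −0.236 and 0.043). With 3 libraries per group this cannot exclude that the numbers pair the samples. With the block, Junb had a log2 fold change of −0.44 (edgeR unadjusted p = 0.0187, adjusted p = 0.297), against an unadjusted p of 0.163 without it. Fosb had 12 to 31 counts in 5 libraries and 215 in control replicate 3.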
